A study of Mus musculus with 3 samples.

Results

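The regions described here are promoter regions of ubiquitinated histone H2A (H2AK119ub) that appeared in 1 of 2 replicate lists and had no counterpart in the other. A region was taken when the authors had placed it in the promoter class and when it overlapped no region of any class in the other list, so the members were chosen by the measured calls themselves. The replicate 1 list held 710 such regions among 2701 promoter regions (26.3%, exact 95% binomial interval 24.6 to 28.0%) and 7838 regions in all. The replicate 2 list held 698 among 2623 promoter regions (26.6%, 24.9 to 28.3%) and 8093 regions in all. These 2 sets are kept apart below and are called the replicate 1 set and the replicate 2 set. A promoter region that did overlap a region of the other list is said to have a partner, and there were 1991 of these in replicate 1 and 1925 in replicate 2.

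Both chromatin immunoprecipitation and sequencing (ChIP-seq) libraries came from 1 group, epithelium of the tongue of newborn mice (postnatal day 0). The titles label it as non-gustatory epithelium and as controls. Cells were sorted on the epithelial surface protein EpCAM after the back of the tongue with the circumvallate papillae had been removed, and the submitters call the replicates biological. What allele or treatment made the animals controls, and how many animals went into a library, is not stated in the labels. The third library, an input, was not analysed here. Each list gives positions, a location class and gene names without a height or read count. Depth is therefore unknown, and a gene without a region cannot be told apart from one whose region fell just short of being called. Since each set comes from a single library, no difference between the sets was tested, and the intervals given with shares cover counting error only.

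H2AK119ub is laid down by Polycomb repressive complex 1, whose Ring1 subunits attach ubiquitin to a lysine in the tail of histone H2A. The mark is recognised by proteins of the second Polycomb complex, and together they keep genes silent that belong to other lineages or other stages. Promoters dense in CG dinucleotides (CpG) are the usual landing sites of these complexes in mammals, and the genes of developmental transcription factors and signalling molecules are their best known targets. In stratified epithelia, Polycomb complexes are known to hold back the programmes of other cell types, such as Merkel cells.

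Because CpG content is a sequence property that the choice of members did not use, promoter windows are shown for 6 member genes. Each window runs from 250 bases before to 50 after a RefSeq transcription start in GRCm38.p6 and is printed 5′ to 3′ on the strand of the gene, with every CG in capitals. Trim2 (chr3:84259730-84260029, minus strand) is the gene of the widest region of the replicate 1 set, and Golga7b (chr19:42247328-42247627, plus strand) has the widest replicate 2 region with a window in the reference table. H2-Q10 (chr17:35469839-35470138, plus strand) and Cdkl1 (chr12:69790658-69790957, minus strand) stand for the middle of each set in CpG content among genes whose start lies in the region. Ihh (chr1:74951623-74951922, minus strand) and Krt5 (chr15:101712856-101713155, minus strand), both from replicate 2, were picked with their values known, as a signalling gene and an epithelial gene with wide regions.
Trim2: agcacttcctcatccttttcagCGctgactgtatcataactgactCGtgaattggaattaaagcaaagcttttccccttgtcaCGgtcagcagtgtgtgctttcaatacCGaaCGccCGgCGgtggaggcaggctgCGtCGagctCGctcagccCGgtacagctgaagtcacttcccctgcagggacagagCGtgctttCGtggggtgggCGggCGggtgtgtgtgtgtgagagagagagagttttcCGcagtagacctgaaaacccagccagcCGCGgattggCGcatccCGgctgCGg
H2-Q10: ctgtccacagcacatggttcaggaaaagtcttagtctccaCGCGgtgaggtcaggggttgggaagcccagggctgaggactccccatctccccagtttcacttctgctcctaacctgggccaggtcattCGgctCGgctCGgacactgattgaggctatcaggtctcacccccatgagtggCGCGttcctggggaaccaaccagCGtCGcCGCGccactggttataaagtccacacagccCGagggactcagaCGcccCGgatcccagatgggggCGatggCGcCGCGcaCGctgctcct
Golga7b: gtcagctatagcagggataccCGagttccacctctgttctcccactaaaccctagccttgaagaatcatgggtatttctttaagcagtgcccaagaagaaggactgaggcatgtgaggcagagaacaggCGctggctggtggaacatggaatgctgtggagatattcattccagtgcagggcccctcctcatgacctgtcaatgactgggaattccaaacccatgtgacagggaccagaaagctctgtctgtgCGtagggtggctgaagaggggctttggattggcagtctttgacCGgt
Cdkl1: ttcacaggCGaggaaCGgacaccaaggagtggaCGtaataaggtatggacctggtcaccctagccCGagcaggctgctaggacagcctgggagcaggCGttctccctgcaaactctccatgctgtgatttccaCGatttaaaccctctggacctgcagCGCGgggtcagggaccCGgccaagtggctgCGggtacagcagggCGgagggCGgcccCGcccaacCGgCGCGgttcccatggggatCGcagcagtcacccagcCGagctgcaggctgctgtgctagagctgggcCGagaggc
Ihh: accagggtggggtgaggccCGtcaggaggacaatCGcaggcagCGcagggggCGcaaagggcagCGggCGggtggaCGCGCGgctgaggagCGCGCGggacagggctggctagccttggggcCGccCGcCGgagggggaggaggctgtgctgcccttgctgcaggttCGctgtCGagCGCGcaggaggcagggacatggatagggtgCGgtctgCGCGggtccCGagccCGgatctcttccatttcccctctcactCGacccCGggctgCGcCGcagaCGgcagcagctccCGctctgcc
Krt5: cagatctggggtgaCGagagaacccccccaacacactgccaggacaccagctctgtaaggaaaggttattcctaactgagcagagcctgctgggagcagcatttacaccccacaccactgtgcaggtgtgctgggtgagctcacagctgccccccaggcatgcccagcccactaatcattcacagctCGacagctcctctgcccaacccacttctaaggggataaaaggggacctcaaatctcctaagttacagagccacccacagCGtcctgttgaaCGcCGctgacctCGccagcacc
The windows of Ihh and Trim2 held 30 and 21 CG dinucleotides, and those of H2-Q10 and Cdkl1 held 19 each. Those of Krt5 and Golga7b held 6 and 4. A CG was present in 94.75% of the windows of all protein-coding genes outside chromosomes 8, 15 and 18, so it is the number and not the presence of the dinucleotide that differs among these promoters.

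The shares without a partner in the other location classes were higher than the 26.3% and 26.6% of promoter regions. They were 47.3% (45.2 to 49.5%) and 46.6% (44.5 to 48.6%) of gene body regions in replicates 1 and 2, 44.7% and 43.4% of distal regions, and 43.7% and 43.2% of intergenic regions. At the edge of the rule, the members nearest to the other list were Fkbp11 in replicate 2, which stopped 12 bp short of a replicate 1 region, and 2810410L24Rik in replicate 1, which stopped 146 bp short of a replicate 2 region. The non-members with the smallest overlap were Thap3 in replicate 1, which shared 71 bp, and Arhgef3 in replicate 2, which shared 243 bp. Few members sat that close to the line: a gap of 1 kb or less was found for 13 regions of the replicate 1 set (1.83%) and 16 of the replicate 2 set (2.29%).

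The members were mostly narrow, and the narrower a promoter region was, the more often it stood alone. In the replicate 1 set the median width was 4588 bp (interval 4204 to 4983, quartiles 2563 and 8157), against 9867 bp for promoter regions with a partner. In the replicate 2 set it was 4582 bp (4254 to 4800, quartiles 2512 and 7087), against 8225 bp. Members ranged from 613 bp to 52.8 kb in replicate 1 and from 501 bp to 27.3 kb in replicate 2, and covered 4.46 and 3.86 Mb. Of promoter regions under 2 kb, 58.5% in replicate 1 (50.7 to 66.0%) and 52.9% in replicate 2 had no partner. Of those of 20 kb and over, 5.56% (3.52 to 8.29%) and 2.08% had none, which left 22 such members in replicate 1 and 6 in replicate 2. Width and presence come from the same calling step, so this is a description of the lists.

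**Figure D1:**
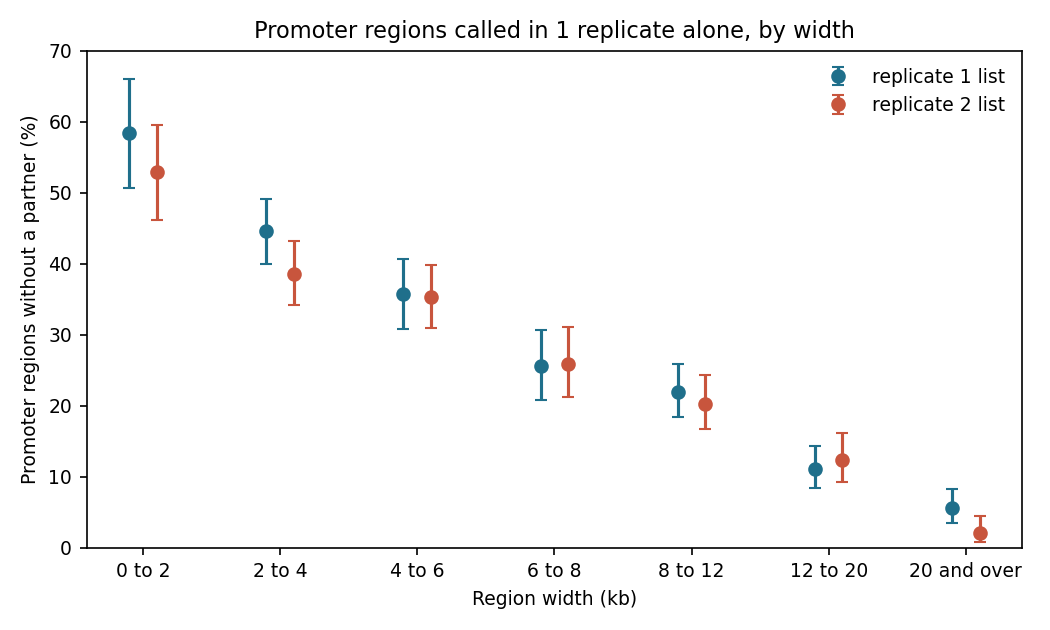
Share of promoter regions without a partner (vertical axis, percent) in 7 classes of region width in kb, for each replicate list, with exact 95% binomial intervals as bars. The share falls in both lists from above 50% under 2 kb to 5.56% and 2.08% at 20 kb and over.

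The 22 wide members of replicate 1 began with Trim2, a ubiquitin ligase gene, whose region on chromosome 3 ran from 84229672 to 84282509 (52.8 kb). Replicate 2 had a 4 kb promoter region named for Trim2 that lay 11.7 kb away. Next came Slco4a1, an organic anion transporter gene (43.9 kb), a region over Nos3, the endothelial nitric oxide synthase, and Kcnh2, a cardiac potassium channel (41.1 kb), and one over the Notch ligand gene Jag2 with Nudt14 and Mir6941 (34.3 kb). The corepressor gene Cbfa2t3 (33.1 kb), the laminin chain gene Lamb1 (33.0 kb), the lipase gene Dagla (32.2 kb), Nat8l, which makes N-acetylaspartate in neurons (31.1 kb), the G protein gene Gnai2 (27.2 kb) and the adaptor gene Grap (26.2 kb) completed the 10 widest. In replicate 2 the 10 widest included Enho (27.3 kb), Golga7b (25.8 kb), the orexin receptor gene Hcrtr1 (25.5 kb), Rps6ka4 with Ccdc88b (24.6 kb), Rpl3 with Snord43 and Syngr1 (20.2 kb), Foxj1, the regulator of motile cilia (19.8 kb), Sox13 (19.8 kb), Ubl3 (19.7 kb) and the semaphorin receptor gene Plxna1 (19 kb). The replicate 2 regions thus included 2 transcription factor genes and 1 guidance receptor gene.

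Most members were not neighbours of a region of the other list, but a sizeable minority were. The median gap was 34.5 kb in replicate 1 (interval 28.4 to 42.8, quartiles 10.6 and 121 kb) and 33.8 kb in replicate 2 (28.7 to 40.3, quartiles 9.83 and 99.1 kb). Within 5 kb of the other list lay 113 replicate 1 members (15.9%) and 116 replicate 2 members (16.6%), and within 100 kb lay 500 (70.4%) and 525 (75.2%). The nearest region of the other list carried the same gene name for 190 members (26.8%) and 186 members (26.6%). It was itself an unshared promoter region for 93 (13.1%) and 86 (12.3%). The most isolated member of replicate 1 was at Pcdh17, a protocadherin gene, 4663 kb from any replicate 2 region, and the next were at the adhesion gene Ncam2 and the adaptor gene Sh3kbp1. In replicate 2 it was at Tbl1xr1, a corepressor subunit gene, 4018 kb away, followed by Fam213a and Thsd7a.

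**Figure D2:**
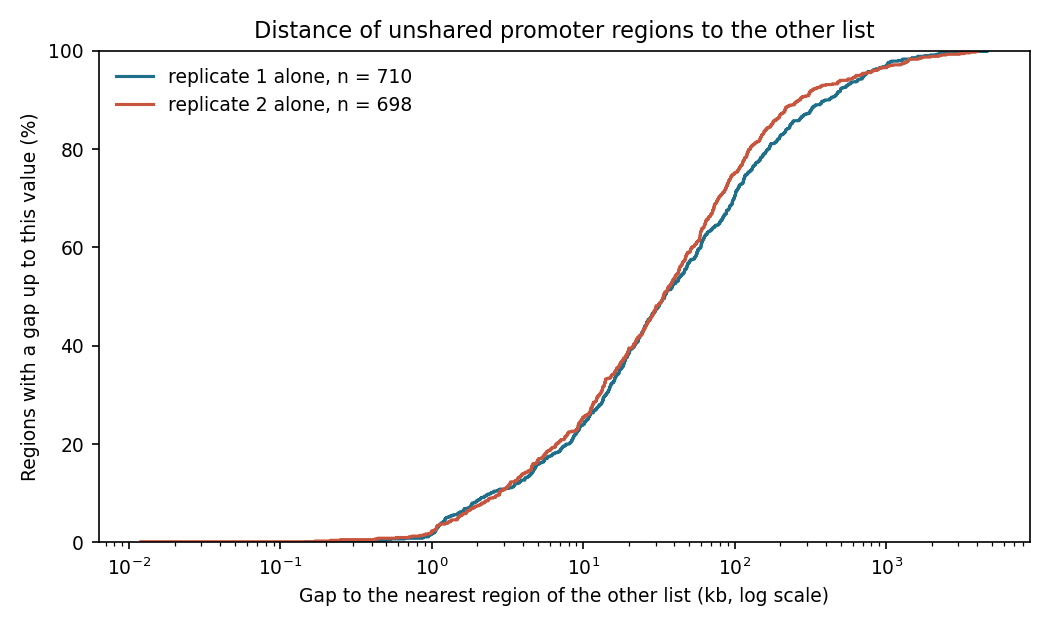
Cumulative share of unshared promoter regions (vertical axis, percent) by the gap to the nearest region of the other list in kb on a log scale, 1 line for each set. The lines run close together, with medians of 34.5 kb in replicate 1 and 33.8 kb in replicate 2.

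The replicate 1 set carried 786 distinct gene names and the replicate 2 set 803. Of these, 702 (89.3%) and 707 (88.0%) belonged to protein-coding genes, 56 and 58 to long noncoding RNAs, and 17 and 27 to microRNAs. A single gene was named by 638 members of replicate 1 (89.9%) and 605 of replicate 2 (86.7%), while among promoter regions with a partner the share was 78.6% and 80.3%. Absence of an overlapping region did not always mean absence of the gene from the other list. In the replicate 1 set, 206 names (26.2%, 23.2 to 29.4%) appeared somewhere in replicate 2, 116 of them for a gene body region, 84 for a distal region and 47 for a promoter region elsewhere at the gene. For replicate 2 it was 201 names (25.03%, 22.1 to 28.2%), with 99, 81 and 50 in those classes. The other 580 and 602 names were given by 1 list alone.

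The reference holds 21631 autosomal and X-linked protein-coding genes, of which the replicate 1 set named 701 (3.24%) and the replicate 2 set named 707 (3.27%). Regions with a partner named 2099 (9.7%) and 2014 (9.31%). These shares are the background for the kinds of genes below. Genes were sorted into 37 families under 10 themes and into 12 further lists by symbol, and 188 genes of the replicate 1 set (26.8%) and 164 of the replicate 2 set (23.2%) fell into at least 1 theme, against 34.0% and 34.4% of genes at regions with a partner. In other words, most genes of the members belonged to none of the kinds listed.

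The broad make-up of the 2 sets was close, and it stood furthest from that of promoter regions with a partner in 2 themes. Developmental regulators, the transcription factor families of the body plan, gave 24 genes (3.42% of genes named) in replicate 1 and 22 (3.11%) in replicate 2, while among regions with a partner they gave 14.96% and 15.4%. Core cell machinery stands for families such as the ribosomal, respiratory, proteasome, splicing, transcription, repair and vesicle genes. It was sorted by symbol, so it also holds genes of narrower use, such as the immunoproteasome genes Psmb8 and Psmb9. This theme gave 43 genes (6.13%) and 40 genes (5.66%) against 2.95% and 3.08%. Signals and receptors gave 30 (4.28%) and 32 (4.53%) against 5.57% and 5.71%, and membrane and adhesion genes gave 45 (6.42%) and 37 (5.23%) against 5.76% in each list. The order differed when each set was counted as a share of the theme's own genes, beside the 3.24% and 3.27% of all protein-coding genes. Of 493 signal and receptor genes, 6.09% (4.14 to 8.57%) were in the replicate 1 set and 6.49% (4.48 to 9.04%) in the replicate 2 set, both intervals lying above that background. Membrane and adhesion genes gave 5% of 900 (3.67 to 6.63%) and 4.11% (2.91 to 5.62%), and developmental regulators gave 4.78% of 502 (3.09 to 7.03%) and 4.38% (2.77 to 6.56%), so that of these 4 intervals only that of membrane genes in replicate 1 lay above it. Core machinery was at the background, with 3.15% of its 1366 genes in the replicate 1 set and 2.93% in the replicate 2 set. Regions with a partner named 62 core machinery genes in each list (4.54%), under the 9.7% and 9.31% of all protein-coding genes. They named more than that in the other 3 themes. The shares were 23.7% and 23.3% of signal and receptor genes, 13.4% and 12.9% of membrane and adhesion genes, and 62.5% and 62.0% of developmental regulators. For signal and receptor genes, a share above that of all genes was thus not particular to the members.

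**Figure D3:**
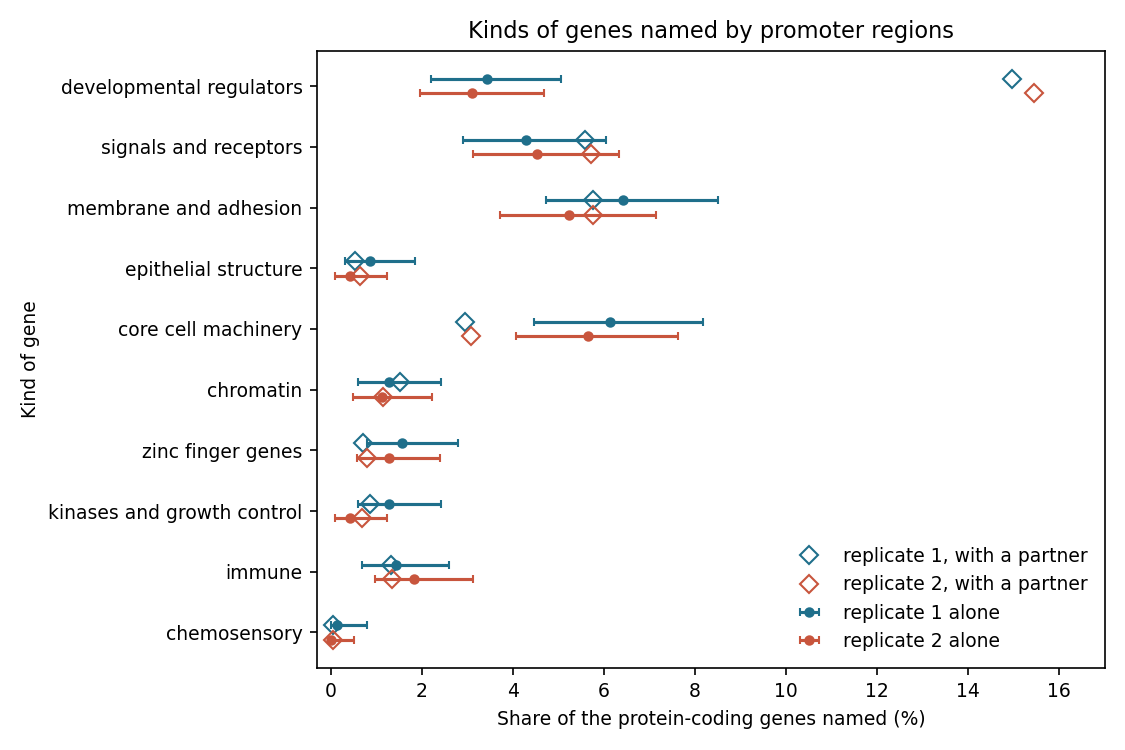
Share of the protein-coding genes named (horizontal axis, percent) that fall in each of 10 kinds, for unshared promoter regions (filled points with exact 95% binomial intervals) and for promoter regions with a partner (open diamonds). Developmental regulators stand at 3.42% and 3.11% in the sets and at 14.96% and 15.4% at regions with a partner, and core cell machinery at 6.13% and 5.66% against 2.95% and 3.08%.

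Seen from the regions, 25 of 307 promoter regions that named a developmental regulator had no partner in replicate 1 (8.14%, 5.34 to 11.8%) and 24 of 303 in replicate 2 (7.92%). For core machinery it was 41 of 102 (40.2%, 30.6 to 50.4%) and 39 of 101 (38.6%). Zinc finger genes, another of the 10 themes, lay close to that on fewer regions, at 11 of 27 (40.7%, 22.4 to 61.2%) and 9 of 25 (36%). Immune genes lay at 27.03% and 35.9%. A high share was thus not particular to core machinery. Signals and receptors lay at 20.5% and 21.9%, and membrane and adhesion genes at 26.3% and 22.7%, close to all promoter regions. Width moved with these shares. Among regions under 4 kb, 8 of 23 for developmental regulators (34.8%, 16.4 to 57.3%) and 30 of 40 for core machinery (75%, 58.8 to 87.3%) had no partner in replicate 1, where all promoter regions of that width stood at 48.3%. In replicate 2 the same counts were 5 of 21 (23.8%, 8.22 to 47.2%) and 24 of 38 (63.2%, 46.0 to 78.2%), with all regions at 43.2%. Under 4 kb the interval of core machinery stood apart from the other groups in replicate 1 alone, and in replicate 2 the intervals of the 3 groups overlapped. Between 4 and 8 kb they overlapped in both lists. At 8 kb and over, developmental regulators were at 3.50% and 4.31%, below the 13.5% and 12.99% of all regions, and core machinery was at 8.82% and 9.68% on 34 and 31 regions.

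**Figure D4:**
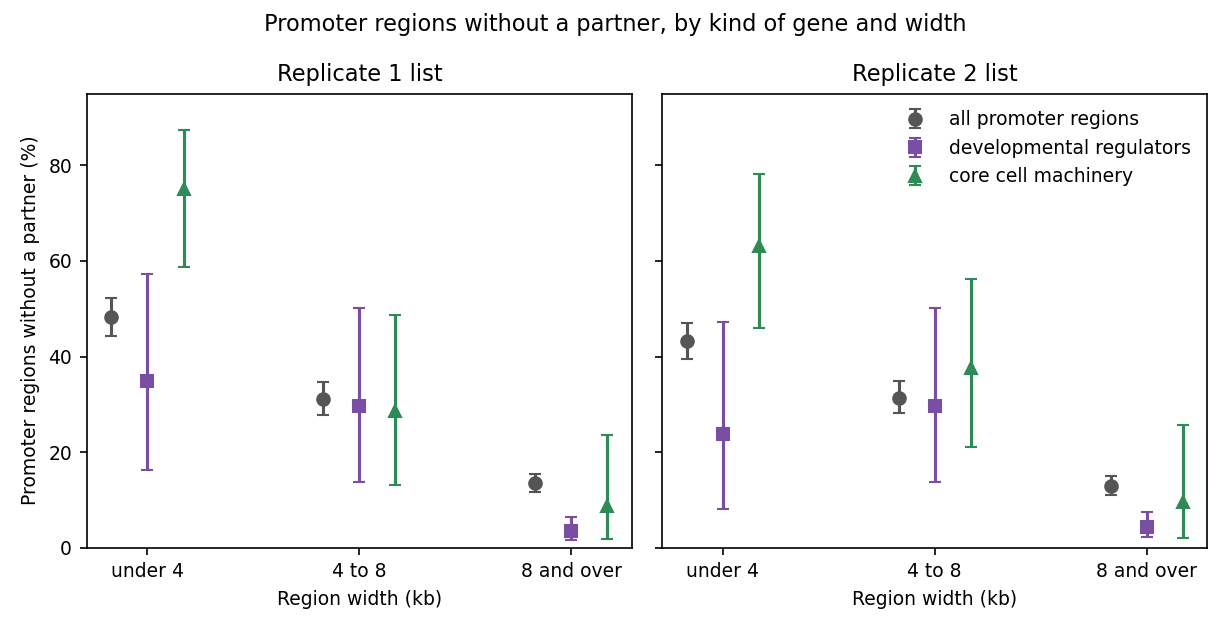
Share of promoter regions without a partner (vertical axis, percent) in 3 classes of region width in kb, for all promoter regions, those naming developmental regulators and those naming core cell machinery, in each replicate list, with exact 95% binomial intervals. Under 4 kb core machinery is highest (75% and 63.2%) and at 8 kb and over developmental regulators are lowest (3.50% and 4.31%).

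Among the developmental regulators, the Hox genes were absent from both sets (0 of 39 in each), and all 39 were named by regions with a partner in both lists. The other homeobox genes gave 4 members in each set. In replicate 1 these were Pitx1, a hindlimb and oral ectoderm factor (9.75 kb), Zeb2, a repressor of epithelial genes (6.67 kb), the Hox cofactor Pbx3 (3.92 kb) and the somite factor Meox2 (0.883 kb). In replicate 2 they were Bsx, a factor of the hypothalamus and pineal gland (15.3 kb), Pax9, which is needed for teeth, palate and tongue papillae (11.8 kb, chromosome 12 from 56687073 to 56698878), Prox1 (8.33 and 4.8 kb) and Cux1 (6.21 and 2.08 kb). The replicate 1 regions of Zeb2 and Meox2 lay 1.22 and 0.534 kb from replicate 2 promoter regions of the same genes, whereas Pax9 and Prox1 lay 63.4 and 309 kb or more from any replicate 1 region.

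Forkhead and Sox genes were split between the sets. Replicate 1 held Foxi3, a factor of ectodermal placodes and hair (10.6 kb, 1.11 kb from a distal replicate 2 region of the same gene), Sox12 (8.94 kb), Foxn2 (3.34 kb) and Foxk2 (0.672 kb). Replicate 2 held Foxj1 (19.8 kb), Sox13 (19.8 kb), Foxn4, a factor of retinal and spinal interneurons (13.9 kb), Foxm1, which drives mitotic genes (8.6 kb), and Sox4 (1.36 kb). Among basic helix-loop-helix genes, replicate 1 held Bhlhe22 (13.6 kb), Twist2 (5.53 kb) and Npas4 (5.53 kb), and replicate 2 held the Notch effectors Heyl (17.5 kb) and Hes1 (8.68 kb) with Hes6 (9.4 kb), Helt (8.81 kb), Bhlhe23 (5 kb) and Bhlhe40 (4.48 kb). The Hes1 region stopped 0.439 kb from a 7.43 kb replicate 1 promoter region of Hes1.

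In 1 family the intervals of the 2 sets did not overlap. The remaining developmental transcription factors gave 12 of 112 genes in replicate 1 (10.7%, 5.66 to 17.97%) and 1 of 112 in replicate 2 (0.893%, 0.0226 to 4.87%), and that 1 gene, Nfix, was in both. The replicate 1 members included Nfix (16.7 kb), Prdm11 (9.98 kb), Ebf4 (9.85 kb), the lymphoid factor Ikzf1 (9.58 kb), Runx3 (8.44 kb), Klf2 (7.79 kb), the Wnt effector Tcf7l2 (6.05 and 3.96 kb), Grhl3, a factor of the skin barrier (4.03 kb), and the Hippo effector Tead1 (3.5 kb). Replicate 2 named 10 of the 12 in another place, as for Grhl3, with gene body regions of 16.1 and 10.7 kb, and Runx3, with regions of 18.4, 26.5 and 15.3 kb. Both Ikzf1 and Egr2 were named by replicate 1 alone. Nuclear receptors went the other way, with 1 of 45 in replicate 1, the mineralocorticoid receptor gene Nr3c2 (4.99 kb), and 6 of 45 in replicate 2 (13.3%, 5.05 to 26.8%). Those 6 included Nr4a2 (4.84 kb), the retinoic acid receptor gene Rarg (4.67 kb), Nr1h3 (3.57 kb), Esrrb (2.61 kb) and the oestrogen receptor gene Esr1 (1.61 kb), and 5 of the 6 had a replicate 1 region elsewhere. Over all developmental regulators, the other list named 15 of 24 genes of the replicate 1 set (62.5%, 40.6 to 81.2%) and 14 of 22 of the replicate 2 set (63.6%, 40.7 to 82.8%), while over all protein-coding genes of the sets it named 27.1% and 26.2%.

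Signalling genes were present in both sets, and none of them was in both at once. Over all protein-coding genes only 15 were in both, of 701 and 707, so this absence was close to the general share. Of 22 Hedgehog pathway genes, replicate 2 held the ligand genes Dhh (16.9 kb, chromosome 15 from 98889768 to 98906671) and Ihh (15.8 kb, chromosome 1 from 74945004 to 74960778), Scube1 (10.8 kb), whose family aids ligand release, and the ligand-binding inhibitor gene Hhip (1.78 kb). In all, 5 of the 22 genes were in the replicate 2 set (22.7%, 7.82 to 45.4%), and replicate 1 held 1 gene, the coreceptor Gas1 (2.09 kb, 4.55%, 0.115 to 22.8%). The Ihh, Dhh and Hhip regions lay 39.4, 76.8 and 1391 kb from the nearest replicate 1 region, while for Scube1 replicate 1 had a gene body region 42.4 kb away. The CpG-dense Ihh window shown above lies inside its region.

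Notch pathway members were few, and regions with a partner named 10 genes of the pathway in replicate 1 and 9 in replicate 2. The replicate 1 members were Jag2 (34.3 kb), Dll3, a ligand gene of the somites (18 kb), and Jag1 (3.77 kb), and none of the 3 was named in replicate 2. Of all names in the replicate 1 set, 73.8% were likewise absent from replicate 2. The replicate 2 members were Notch1, a receptor needed for keratinocyte differentiation (10.4 kb), with Heyl, Hes6 and Hes1. Replicate 1 also named Hes1, for a promoter region 0.439 kb from the member. Wnt pathway members of replicate 1 were the ligand genes Wnt3a (21.4 kb) and Wnt9b (7.06 kb) and the receptor gene Fzd2 (1.73 kb). Those of replicate 2 were the ligand gene Wnt7a (13.7 kb), the agonist gene Rspo1 (13.2 kb) and Lgr5 (5.92 kb) and Lgr4 (4.65 kb), which encode receptors of that agonist family. None of Rspo1, Lgr5 and Lgr4 was named in the replicate 1 list in any class. Among Bmp and Tgf-beta genes, replicate 1 held the antagonist Nog (9.05 kb), the receptor Acvr2b (8.67 kb) and the ligand Bmp8b (7.34 kb), and replicate 2 held the antagonist Lefty1 (7.07 kb), the receptor Tgfbr2 (3.74 kb) and the inhibitor Smad7 (3.49 kb). Axon guidance genes gave 10 of 74 in replicate 1 (13.5%, 6.68 to 23.5%), with 5 semaphorins led by Sema6b (16.7 kb) and Sema3b (12 kb) beside the receptors Nrp2 (20.1 kb), Unc5b (10.3 kb), Robo1 (5.72 kb), Ephb4 (3.22 kb) and Ephb3 (0.613 kb). Replicate 2 gave 5 (6.76%, 2.23 to 15.1%), namely the receptors Plxna1 (19 kb) and Plxna4 (9.39 kb) and the ligands Slit1 (8.9 kb), Efna1 (5.45 kb) and Slit2 (4.55 kb).

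Genes of the epithelium itself formed a small share of either set. Of 53 keratin genes, replicate 1 held 5 (9.43%, 3.13 to 20.7%) and replicate 2 held 2 (3.77%, 0.460 to 12.98%). In replicate 1, Krt32, Krt35 and Krt36, keratins of hair and of filiform papillae, shared 1 region of 16.2 kb on chromosome 11 from 100088500 to 100104690, which lay 11.1 kb from a replicate 2 promoter region named for Krt13. Krt18, a simple-epithelium keratin, had 10.9 kb, 6.83 kb from a replicate 2 promoter region of its neighbour and pairing partner Krt8, which had a counterpart in replicate 1 and so was no member. Krt10, a keratin of the differentiated layers, had 2.25 kb, with a distal replicate 2 region 8.57 kb away. In replicate 2, Krt5, the keratin of basal cells, had a region of 14.9 kb on chromosome 15 from 101707225 to 101722112. The nearest replicate 1 region, 2.44 kb wide and assigned to Krt6a, was 7.1 kb away. Krt26, a hair keratin, had 4.16 kb.

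Of 26 basal keratinocyte genes, the replicate 1 set included Jag2, and replicate 2 held Krt5, Notch1 and Lamb3 (3.1 kb), a laminin chain gene of the basement membrane. Of 39 genes of differentiated keratinocytes, replicate 1 held Krt36, Krt10 and Grhl3 and replicate 2 held 0, which allows a share of up to 9.03%. Claudin and gap junction genes gave 1 of 47 in replicate 1 and 5 in replicate 2 (10.6%, 3.55 to 23.1%), including Cldn6 and Cldn9 in a shared region of 9 kb, Cldn19 (7.88 kb) and the connexin gene Gjb5 (5.31 kb). Cornified envelope and keratin-associated genes gave 1 in each set, Krtap5-5 (2.35 kb) and the hair follicle gene Tchh (5.95 kb).

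Markers of the sorted cells and of other cell types gave few members. Among the epithelial markers, Epcam, Cdh1, Trp63, Krt14 and Col17a1 had no region at the gene in either list. The nearest regions lay 34.9 kb from Krt14 (replicate 2), 74.7 kb from Col17a1 (replicate 1) and 86.8 kb from Cdh1 (replicate 1). The differentiation markers Ivl and Lor lay 859 kb or more from any region. Others did have regions. The basal keratin gene Krt15 was named by promoter regions with a partner in both lists (23.5 and 20.6 kb), as were the keratin genes Krt4 (19.3 and 41.8 kb) and Krt13 (8.03 kb in replicate 2, the Krt15 region in replicate 1) of the differentiated oral epithelium. The integrin gene Itgb4 was overlapped in both lists by a promoter region named for a neighbouring gene (18.1 and 15 kb), and Itga6 by a gene body region of replicate 1 alone (14.5 kb). Of 34 taste bud genes, replicate 1 held Krt18 and Ddc (4.36 kb), and replicate 2 held 5 (14.7%, 4.95 to 31.1%), namely Hes6, Prox1, Pkd2l1, a channel gene of sour taste cells (6.06 kb), the channel gene Calhm1 (4.8 kb) and the glutamate transporter gene Slc1a3 (1.08 kb), none of which replicate 1 named. The taste receptors themselves, counted with olfactory and vomeronasal receptors, gave 1 of 1523 genes in replicate 1, Olfr750, and 0 in replicate 2. Fibroblast and mesenchyme genes gave 4 of 25 in replicate 1, Col1a1 (9.08 kb), Zeb2, Thy1 (6.62 kb) and Twist2, and 0 in replicate 2. The replicate 2 list named Zeb2 and Twist2 elsewhere. Regions with a partner named 13 of the 25 genes in each list. The mesenchyme markers Vim, Pdgfra and Twist1 had promoter regions with a partner in both. Muscle, neuronal, glial, endothelial, immune cell and Merkel cell lists gave at most 2 genes in a set, among them the endothelial receptor gene Kdr (8.1 kb) in replicate 1 and the GABA-producing enzyme gene Gad1 (15.1 kb) and the calcium channel gene Ryr1 of muscle (3.82 kb) in replicate 2. The part that other cells in the sort might have in these regions was not tested.

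Core machinery members had median widths of 3.01 and 2.78 kb, with some wide exceptions. Ribosomal protein genes included Mrps23 (7.23 kb) and Rpl3l (4.95 kb) in replicate 1, and Rpl3 (20.2 kb), Rps15 (3.04 kb), Mrpl28 (2.46 kb), Rps2 (1.97 kb) and Rps24 (1.44 kb) in replicate 2. The Rpl3l region and that of Rps2 and Ndufb10 were neighbours, 5.48 kb apart. Proteasome genes gave the immunoproteasome subunits Psmb8 and Psmb9 in a shared replicate 1 region of 22.2 kb that ended 1.04 kb from a replicate 2 promoter region of Tap2, a peptide transporter gene, with Psmb2 (3.92 kb) in replicate 1 and Psmb3 (2.71 kb) in replicate 2. Among general transcription genes, replicate 1 held Gtf2h4 (3.09 kb), Med13l (2.73 kb), Gtf2f1 (1.19 kb), Gtf3c4 (0.962 kb) and Med15 (0.827 kb), and replicate 2 held Med16 (6.93 kb), Ints8 (1.94 kb) and Med12 (1.86 kb). The heat shock genes Hspa1b (3.01 kb, replicate 1) and Hspa1a with Hspa1l (2.5 kb, replicate 2) faced each other across 10.2 kb; Hspa1a and Hspa1b are near-identical copies, so reads cannot be placed on them with certainty. Of 40 housekeeping genes, replicate 1 held Hsp90ab1 (5.94 kb), Psmb2 and Snrpd3 (3.07 kb), and replicate 2 held Gapdh (6.34 kb, 156 kb from any replicate 1 region).

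Chromatin genes appeared in both sets, including genes of the Polycomb system. Replicate 1 held the PRC1 subunit genes Bmi1 (5.47 kb) and Phc2 (3.29 kb) and the corepressor gene Bcor of a variant PRC1 (8.69 kb), and replicate 2 held the PRC1 subunit gene Pcgf2 (2.71 kb). Replicate 2 named all 3 of the replicate 1 genes elsewhere, with a 10 kb promoter region of Bmi1 that lay 1.8 kb away. Outside the Polycomb genes, replicate 1 held the deacetylases Sirt7 (11.1 kb) and Sirt1 (2.2 kb) with Kmt5b, Kdm4a and Tet1, and replicate 2 held Ino80b (8.4 kb), Chd7 (7.82 kb), the DNA methyltransferase gene Dnmt3a (5.45 kb), Kdm4b, Smarcc2 and Brd3.

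Among the other kinds, ion channels gave 15 of 268 in replicate 1 (5.60%, 3.17 to 9.06%), with Kcnh2, P2rx7 (15.1 kb) and Kcna1 (12.7 kb), and 18 in replicate 2 (6.72%, 4.03 to 10.4%), with Asic4 (17.6 kb) and the pacemaker channels Hcn4 (17 kb) and Hcn2 (12.2 kb). Cacna1c was in both. Cadherins gave 6 of 115 in replicate 1 (5.22%, 1.94 to 11.0%), with Cdh4 (16.3 kb), Cdh22 (13.3 kb) and Pcdh17 (11 kb), and 1 in replicate 2, Celsr1 (3.09 kb). MAP kinases and dual phosphatases gave 7 of 79 in replicate 1 (8.86%, 3.64 to 17.4%), of which Mapk11 and Mapk12 shared a region of 15.3 kb, and 2 in replicate 2. Cytokine and other immune genes gave 10 of 355 in replicate 1, including the MHC genes H2-Q10 (13 kb) and H2-DMb2 (11.4 kb), and 13 in replicate 2, including Ifngr2 (12 kb) and Tnfrsf9 (7.67 and 2.49 kb). The MHC genes belong to a family of similar copies, and their regions carry that uncertainty. Imprinted genes gave Rasgrf1 (14 kb), Nnat (7.28 kb) and Ddc in replicate 1 and Gnas (6.59 kb) in replicate 2.

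Across the 37 families, the interval held the background in 33 families of replicate 1 and 31 of replicate 2. It lay above it for 3 in replicate 1 (the remaining developmental transcription factors, axon guidance and MAP kinases) and 5 in replicate 2 (nuclear receptors, Hedgehog, Notch, ion channels, and claudins with gap junctions), and below it in both for the olfactory, vomeronasal and taste receptors. No family above the background in one set was above it in the other. The intervals are not adjusted for the number of families, and genes of a cluster can share a region.

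**Figure D5:**
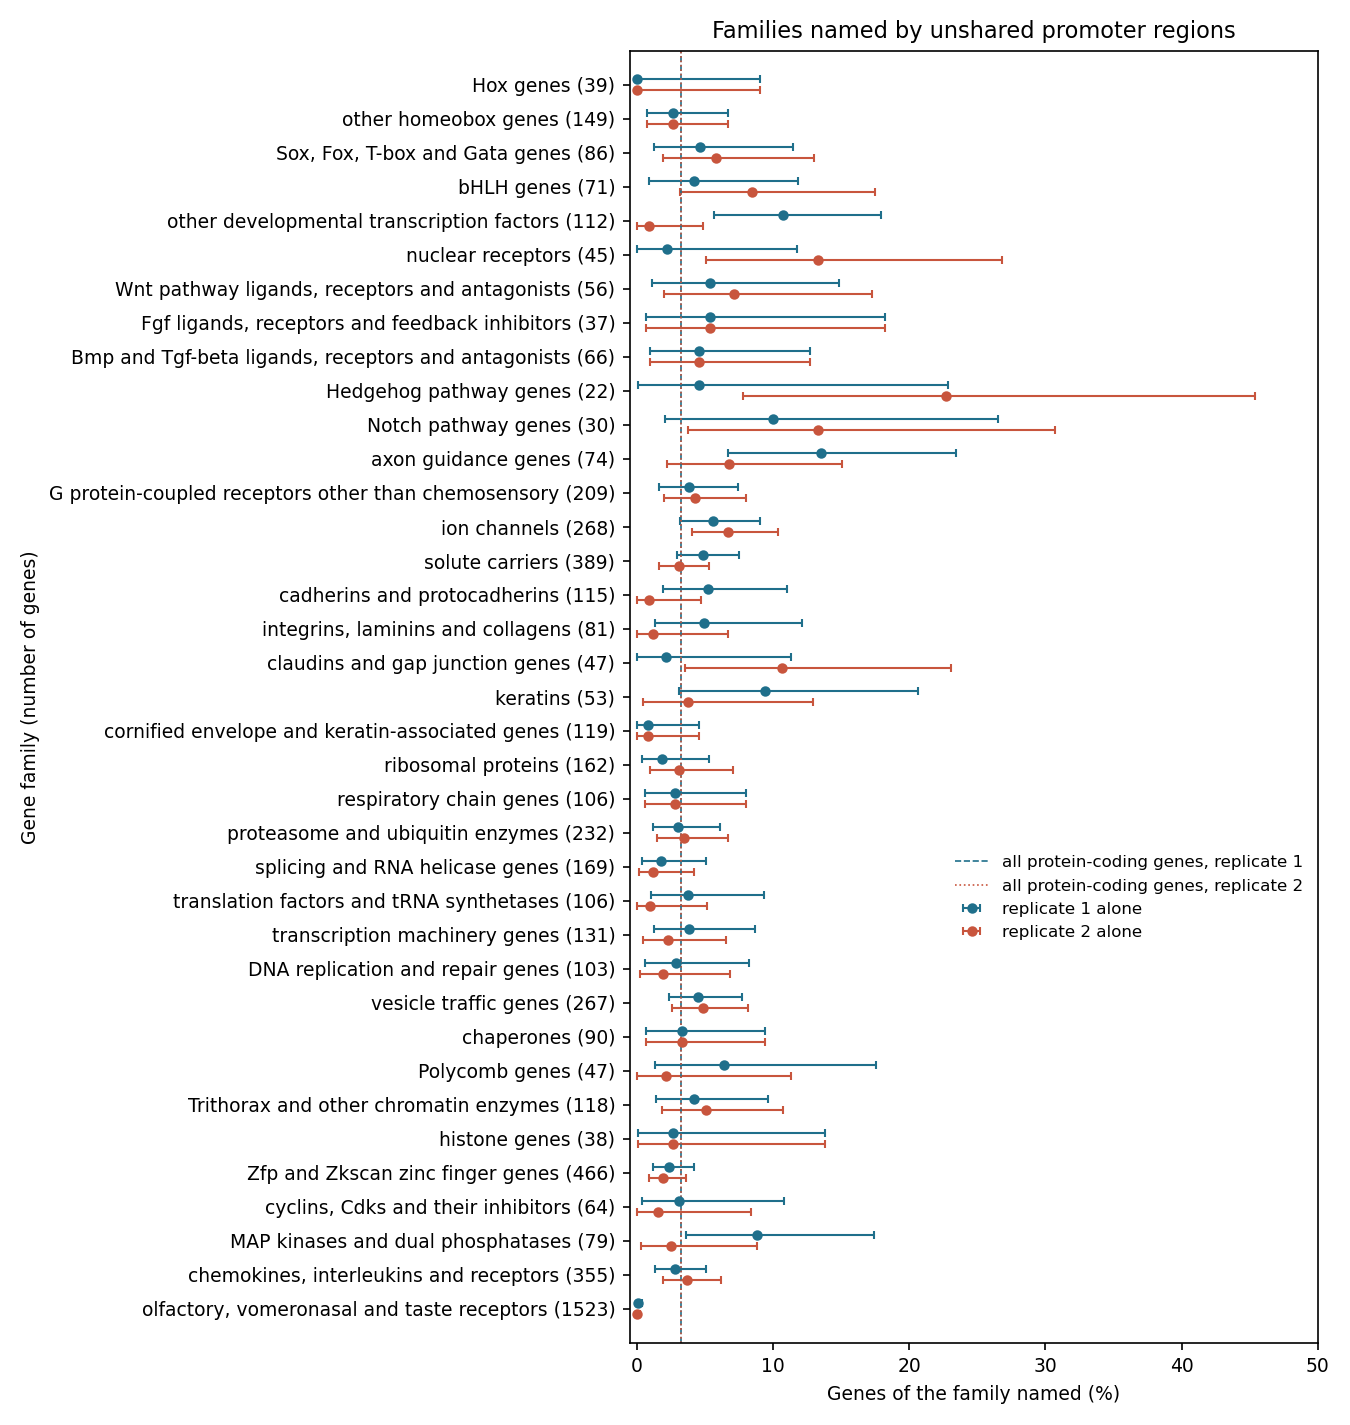
Share of the genes of each of 37 families (number of genes in brackets) that an unshared promoter region named (horizontal axis, percent), with exact 95% binomial intervals, for replicate 1 and replicate 2. Dashed and dotted lines mark the share of all protein-coding genes, 3.24% and 3.27%, and the pair of intervals is apart in 1 family, the remaining developmental transcription factors (10.7% and 0.893%).

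Only 16 gene names stood in both sets, 15 of them protein-coding. The rule itself keeps this number low, since promoter regions of a gene that overlap between the lists are not members. They were Aldoc, a glycolytic enzyme gene, Atp8b3, Cacna1c, Dopey2, Dpagt1, Ergic1, Gm867, Gnb1l, Nfix, Ptgfrn, Retreg1, Rsph14, Spns2, Synj2 and Vgll3, with the long noncoding RNA gene Gm19466. In 15 of the 16 the nearest pair of regions stood side by side, 0.421 to 4.48 kb apart, and for Dopey2 the gap was 19.5 kb. At Nfix, for instance, the replicate 2 region on chromosome 8 ran from 84794680 to 84799275 and the replicate 1 region from 84800589 to 84817271. At Spns2, a transporter of a signalling lipid, regions of 6.96 kb in replicate 1 and 17.5 kb in replicate 2 were 4.48 kb apart. These pairs are cases in which both lists named the promoter class of a gene without sharing a base.

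The promoters of members were richer in CpG than those of protein-coding genes at large. Outside chromosomes 8, 15 and 18, the median ratio of observed to expected CpG in the promoter window was 0.722 (0.687 to 0.736) over 500 of 602 genes of the replicate 1 set and 0.681 (0.651 to 0.714) over 487 of 605 genes of the replicate 2 set. For promoter regions with a partner it was 0.706 (0.692 to 0.719) in replicate 1 and 0.704 (0.689 to 0.717) in replicate 2. Only 78.6% and 79.4% of their genes had a window, under the 80% required, so no comparison with the sets is drawn. Over 16127 of 19301 protein-coding genes it was 0.567 (0.555 to 0.579). Median GC content was 61.67% and 61% in the sets and 56.33% over all genes, and the median number of CG dinucleotides in a window was 19, 19 and 13. The windows printed above span this range, from 0.198 at Golga7b and 0.251 at Krt5 to 0.774 at Ihh and 0.838 at Trim2. Where the reference gives a start, 243 of 501 members of replicate 1 (48.5%) held the start of a gene they named, against 1013 of 1388 promoter regions with a partner (73.0%). The members were also narrower (median 4588 against 9867 bp), which leaves less room for a start, and regions of equal width were not compared. For genes whose start lay inside the member, the median CpG ratio was lower, 0.654 in replicate 1 and 0.610 in replicate 2. In replicate 2 only 79.3% of members had a window for this check, also under the 80% required.

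Members lay on all 20 chromosomes. The share of promoter regions without a partner ran from 21.6% on chromosome 4 in both lists to 40% on chromosome X (14 of 35, 23.9 to 57.9%) and chromosome 16 (30 of 75, 28.9 to 52.0%) in replicate 1, and to 31.4% on chromosome 8 in replicate 2. On X, replicate 2 had 8 of 29 (27.6%). Among the microRNA genes, replicate 1 named Mir294 with Mir295, members of the embryonic stem cell cluster, in a region of 4.62 kb. Replicate 2 named 5 microRNAs of the imprinted cluster on chromosome 12 (Mir412, Mir369, Mir409, Mir541 and Mir410) in a region of 2.2 kb that lay 272 kb from any replicate 1 region.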

How the data were processed

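The authors deposited 1 list of regions per ChIP replicate in mm10, with chromosome, start, end, location class and gene names per the file headers, and no score of any kind. Bowtie2 2.3.3 and SAMtools 0.1.19 are named, without a role, per the submitters' processing notes. How regions were called, whether the input entered the calling, how coordinates are counted and which distances define a class is, for these lists, not given in the sources used here. Nothing from the input library was analysed here.

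Overlap was counted from 1 bp, and the overlap step was tested on simulated lists. Names were matched to RefSeq GRCm38.p6 by symbol and then by unique synonym (783 of 786 and 802 of 803). Observed over expected CpG is the number of CG times the window length over the product of C and G counts. Chromosomes 8, 15 and 18 were left out there because the promoter table covers 69.5%, 54.4% and 0% of their genes, a choice made after seeing the data. On all chromosomes 79.2% and 76.1% of member genes had a window, under the 80% required, and the same check was void for regions with a partner (78.6% and 79.4%) and for starts inside replicate 2 members (79.3%). Intervals are exact (Clopper-Pearson) 95% for shares and order-statistic 95% for medians.

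Members, gene families and gene lists were chosen with earlier results of these data known. Genes named by rule were the 10 widest and 3 most isolated regions of each set, up to 3 genes with the widest regions per theme and list, genes in both sets, regions at the edge of the rule, and Krt5, Krt8, Prox1, Ihh and Dhh. Other genes were named after their values were seen. A few member genes are left out of the text. The scripts ran on scipy 1.17.1 and pandas 2.3.3 under Python 3.11.15, with numpy 2.4.6 and, for plots, matplotlib 3.10.9. Alternatives changed the overlap rule, the class of a partner, the width, the chromosomes and the way genes were tied to regions.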

Additional observations from a re-analysis of the deposited data

How the results depend on the processing

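For 12 results, 84 values were computed under alternatives; 59 moved by less than their interval or, for counts, stayed within 1.5 times, and 25 moved further. When a partner had to share at least 50% of both regions, the sets grew to 1368 and 1313 regions, their median widths to 6298.5 and 4965 bp, and the share of gene names also in the other list to 57% and 56.32%. With regions limited to the wider part of each list (over its median), 180 and 187 regions remained, with median widths of 11057 and 9653 bp, 30.0% of replicate 1 names in the other list, 5.093% developmental regulators in replicate 2 and core machinery at 2.139% and 2.315%. With a promoter region required as partner, the replicate 1 median width was 5449.5 bp and the shares of names in the other list were 35.1% and 30.35%. With regions within 5000 bp counted as shared, those shares were 18.9% and 18.4%, and they were 5.98% and 6.227% when the other list had to name the gene for a promoter region. Restricted to genes that the other list names nowhere, developmental regulators fell to 1.761% and 1.533%. The CpG ratio was 0.6543 and 0.6095 for genes with a start inside the region. Leaving out a replicate could give no value, since each set is defined against the other list. The lists hold neither counts nor heights, so how far sequencing depth set the members was not tested.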
